A study of Mus musculus with 6 samples.

Results

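Mirtrons and other miRNAs that are made without Drosha were followed in c-kit+ cardiac progenitor cells of mouse hearts. The 8 mature miRNAs were taken by name from the 1978 rows of the known miRNA table. Short introns give rise to 6 of them (mmu-miR-877-5p, mmu-miR-877-3p, mmu-miR-1981-5p, mmu-miR-702-3p, mmu-miR-3102-5p and mmu-miR-3102-3p), and the other two are mmu-miR-320-3p and mmu-miR-484, with the species prefix left out below. They were chosen by name with their counts in these libraries, and the differences between hypoxia and control counts, in view, so every difference between the groups below is a description and carries no test.

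Small RNA was sequenced from heart cells that magnetic beads had captured through c-kit, a receptor tyrosine kinase on their surface. The hypoxia group held 3 libraries of cells cultured for 12 hours under low oxygen, and the control group held 3 libraries labelled 0 hours. Both groups came from wild-type male C57BL/6 mice of 4 to 6 weeks. Their treatment label reads hypoxia in both groups, so titles and times gave the groups. Titles call the libraries of each group biological replicates, but no label ties a library to its own animal or culture, so how much of the spread among libraries is technical is unknown. The oxygen level is not stated. If the control cells spent no such time in culture, culture and hypoxia cannot be told apart. The labels speak of RNA from exosomes while the series' design text speaks of RNA from the cells. Columns of the count table carry the digit 0 or 1 and a letter. The digit 0 was read as 0 hours and the digit 1 as hypoxia, and every direction below rests on that reading. Values of a group are listed in the order A, B, C.

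Most miRNA precursors are cut out of a long primary transcript in the nucleus by the Microprocessor, the complex of the nuclease Drosha and its partner Dgcr8, and then trimmed by Dicer. A mirtron skips the first cut: its hairpin is a whole short intron, which the spliceosome releases and a debranching enzyme opens, so the ends of the hairpin are splice sites. Precursors of miR-320 and miR-484 skip it differently, since transcription itself yields a short hairpin. In mouse the 5′ end of the miR-320 hairpin carries a cap, which is known to favour use of the 3p arm. All of them still need Dicer.

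The mature sequences show where each arm comes from, so they are printed here from RefSeq (build GRCm38.p6), where 7 of the 8 members were matched by name, while miR-320-3p is named only. Letters run 5′ to 3′, and capitals mark the seed, bases 2 to 8, which directs target choice.
miR-877-5p: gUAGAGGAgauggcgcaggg
miR-877-3p: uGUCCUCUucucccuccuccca
miR-1981-5p: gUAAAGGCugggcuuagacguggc
miR-702-3p: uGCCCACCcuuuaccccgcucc
miR-3102-5p: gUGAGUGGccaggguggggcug
miR-3102-3p: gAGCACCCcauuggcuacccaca
miR-484: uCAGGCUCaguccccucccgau

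All 3 of the 5p arms among these mirtrons begin with GU, the letters that open an intron. Each starts at the first base of its intron, so the GU follows from its place and is not a separate result. A GU start was found in 60 of the 1679 mature sequences of the table's rows that RefSeq held (3.57%), and a U start, common among miRNAs, in 687 (40.9%). No 2 of the 7 members shared a seed. One seed recurred in the wider set, UGAGUGG, carried by miR-3102-5p and by miR-702-5p, the partner arm of miR-702-3p, whose first letters are the splice donor of another intron. Beyond this pair, no other of the 1679 rows with a sequence shared a seed with any of the 7 members. GC content ran from 58.3% for miR-1981-5p to 72.7% for miR-3102-5p, against a median of 52.2% and quartiles of 45.5% and 60% over the 1679 sequences. No other sequence held a stretch of 16 bases of the 7 members with a sequence. For none of the 6 members past the expression filter did another row have counts within 1% in every library.

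The hairpins were compared with the introns of the GENCODE M21 annotation (GRCm38, the assembly that the build name mm10 in the submitters' processing notes denotes). Mir877 filled an 85-base intron of Abcf1, a gene with a role in translation initiation, base for base (chr17:35960730-35960814, minus strand). Mir1981 filled an 82-base intron of Marc2, which encodes a mitochondrial reducing enzyme (chr1:184822407-184822488, minus strand). Mir3102 filled a 104-base intron of Arhgef17 (chr7:100882306-100882409, minus strand), which a retained-intron transcript of that gene also covers. Mir702 lay at a 102-base intron of Plod3, a collagen lysyl hydroxylase, but its annotated hairpin (chr5:136991433-136991541, plus strand) began 9 bases before the intron and stopped 2 bases short of its end, while miR-702-5p began at the first base of the intron.

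The 2 best measured mirtron hairpins are printed because their ends carry the splice sites. Capitals mark the mature arms.
Mir877: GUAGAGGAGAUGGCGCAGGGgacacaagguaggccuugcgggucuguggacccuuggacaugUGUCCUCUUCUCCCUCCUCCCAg
Mir1981: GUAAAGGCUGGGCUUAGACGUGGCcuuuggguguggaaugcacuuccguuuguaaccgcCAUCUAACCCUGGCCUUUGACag
Both open with GU, the 5′ splice site, and close with AG, the 3′ splice site. In both, the 5p arm starts at base 1 of the intron, and the 3p arm ends 1 base before the end in Mir877 and 2 bases before it in Mir1981. GU at the start together with AG at the end was found in 30 of the 1005 RefSeq hairpins (2.99%), and in 15 of the 17 (88.2%) whose ends both lay within 5 bases of the ends of an annotated intron. By comparison 23 of 2202 annotated miRNA genes (1.04%) met that 5-base rule. Since the rule picks hairpins by their intron ends, the 15 of 17 with GU and AG follow largely from the rule.

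**Figure D1:**
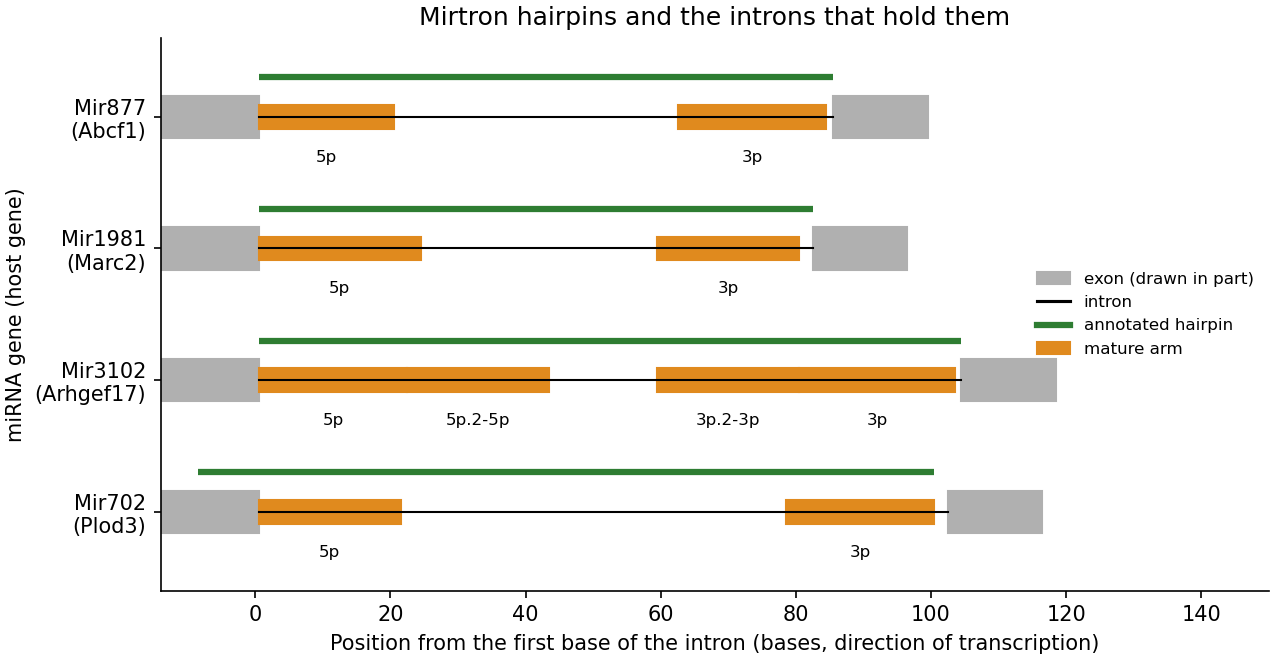
Mirtron hairpins drawn to scale over the introns that hold them; the horizontal axis gives the position in bases from the first base of the intron in the direction of transcription. Green lines are annotated hairpins, orange boxes mature arms and grey boxes the flanking exons, drawn in part. The hairpins of Mir877, Mir1981 and Mir3102 span their introns from end to end, and that of Mir702 starts 9 bases early.

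Neither miR-320 nor miR-484 lay in an intron of a gene on its own strand. Mir484 (chr16:14159626-14159692, plus strand) overlapped an exon of Marf1 on the opposite strand. Mir320 (chr14:70443510-70443591, plus strand) lay 63 bases from the nearest exon of Polr3d, a subunit of RNA polymerase III, which runs on the opposite strand.

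Each library held between 12285970 and 16975987 counts of known miRNAs. Levels are given as CPM, the counts of each library brought to a common total with TMM factors, which correct for library composition. Since a mature miRNA is sequenced whole, levels of different miRNAs were not divided by length, but ligation and amplification can favour one sequence over another. In bulk samples such as these, fewer cells of a type and less RNA per cell cannot be told apart. No miRNA defines c-kit+ progenitor cells, so the label was checked by other types. The 2 endothelial arms of miR-126a summed to 200661 to 238099 CPM in hypoxia and 227197 to 249641 CPM in control, the 5 fibroblast and smooth muscle markers to 26572 to 50347 CPM in hypoxia and 26072 to 57420 CPM in control, the 5 cardiomyocyte markers to 102 to 173 CPM in hypoxia and 76.4 to 171 CPM in control, the 7 blood markers to 42.6 to 56.8 CPM in hypoxia and 49.4 to 55.0 CPM in control, and the 5 epithelial markers to 5.89 to 7.55 CPM in hypoxia and 4.37 to 9.23 CPM in control. Most of the endothelial sum was miR-126a-3p (mean over all libraries 221513 CPM). Most of the fibroblast and smooth muscle sum was miR-143-3p (31365 CPM), and most of the cardiomyocyte sum was miR-1a-3p (109 CPM). No marker was at 0 in every library. The sums do not establish the label, and the part of these cells in the member levels was not tested.

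Together the 8 members took 0.0908% ± 0.00637 of known miRNA counts in hypoxia and 0.101% ± 0.0192 in control (SD, n = 3 each). The transcribed hairpins supplied most of this: miR-484 and miR-320-3p made up 82.4% to 88.0% of the members' counts in every library. The 6 mirtron arms held 0.0121% ± 0.000906 in hypoxia and 0.0162% ± 0.00283 in control (SD, n = 3 each), nearly all of it miR-1981-5p. The order miR-484, miR-320-3p, miR-1981-5p held in all 6 libraries. Below them miR-1981-5p was 15.7 to 34.3 times as abundant as miR-877-5p. Levels of miR-877-3p and miR-3102-3p did not differ beyond their spread, and miR-702-3p and miR-3102-5p were near the limit of detection.

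Among the mirtron arms that are members the plainest difference was that of miR-877, of which both arms stood lower in every hypoxia library than in any control library. A partner arm from another mirtron, miR-3102-5p.2-5p, also did so, with a log2 fold change of -1.01 (SE 0.37). miR-877-3p had 2.70, 2.21 and 2.98 CPM in the hypoxia libraries, from 45, 36 and 41 counts, against 5.10, 4.99 and 5.67 CPM in the control libraries, from 63, 65 and 89 counts. The highest hypoxia library lay well under the lowest control library. Its log2 fold change, hypoxia over control, was -0.999 (SE 0.26), or 50.03% of the control level. At these counts its share of known miRNA counts had a 95% exact interval (Clopper-Pearson, counting error only) of 2.23 to 4.22 unscaled CPM in hypoxia C, the highest of its group, and 3.45 to 5.70 unscaled CPM in control B, the lowest of its group. These 2 intervals overlapped.

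For miR-877-5p the levels were 4.09, 3.74 and 5.81 CPM in the hypoxia libraries and 7.29, 7.91 and 6.75 CPM in the control libraries. Hypoxia C came closest to the control libraries but remained below them. The log2 fold change was -0.69 (SE 0.26), or 62.1% of the control level, and 2 of the 6 members past the expression filter, these 2 arms, had all hypoxia libraries below all control libraries. Over all 619 tested miRNAs 34 did so (5.49%), and since this contrast was in view when the members were named, nothing is read from the count.

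miR-1981-5p, the only abundant mirtron arm, had 98.6, 128 and 99.1 CPM in the hypoxia libraries, against 114, 194 and 142 CPM in the control libraries. The groups overlapped, because control A lay below hypoxia B. Mean levels were 109 ± 17.0 CPM in hypoxia and 150.04 ± 40.6 CPM in control (SD, n = 3 each), and the log2 fold change was -0.47 (SE 0.25). Within same-lettered libraries the log2 difference, hypoxia minus control, was -0.21 (A), -0.60 (B) and -0.52 (C). Leaving out control B gave a log2 fold change of -0.26 (SE 0.24).

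The miR-3102 intron is unusual in holding an outer and an inner pair of arms, named 5p and 3p outside and 5p.2 and 3p.2 inside. Its outer 3p arm, miR-3102-3p, had 2.34, 2.94 and 3.70 CPM in the hypoxia libraries, against 5.59, 3.69 and 4.90 CPM in the control libraries, a log2 fold change of -0.66 (SE 0.30). The overlap was narrow, hypoxia C and control B being nearly equal. The outer 5p arm, miR-3102-5p, was all but missing, with 0, 0 and 1 counts in the hypoxia libraries and 0, 2 and 1 counts in the control libraries. Where a library held no read, a level of up to 0.177 to 0.244 CPM was allowed (3 counts of its total, counting error only).

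miR-702-3p was as sparse, with 7, 1 and 3 counts in the hypoxia libraries, against 0, 6 and 0 counts in the control libraries. Neither miR-702-3p nor miR-3102-5p passed the expression filter, so no fold change is given for either.

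**Figure D2:**
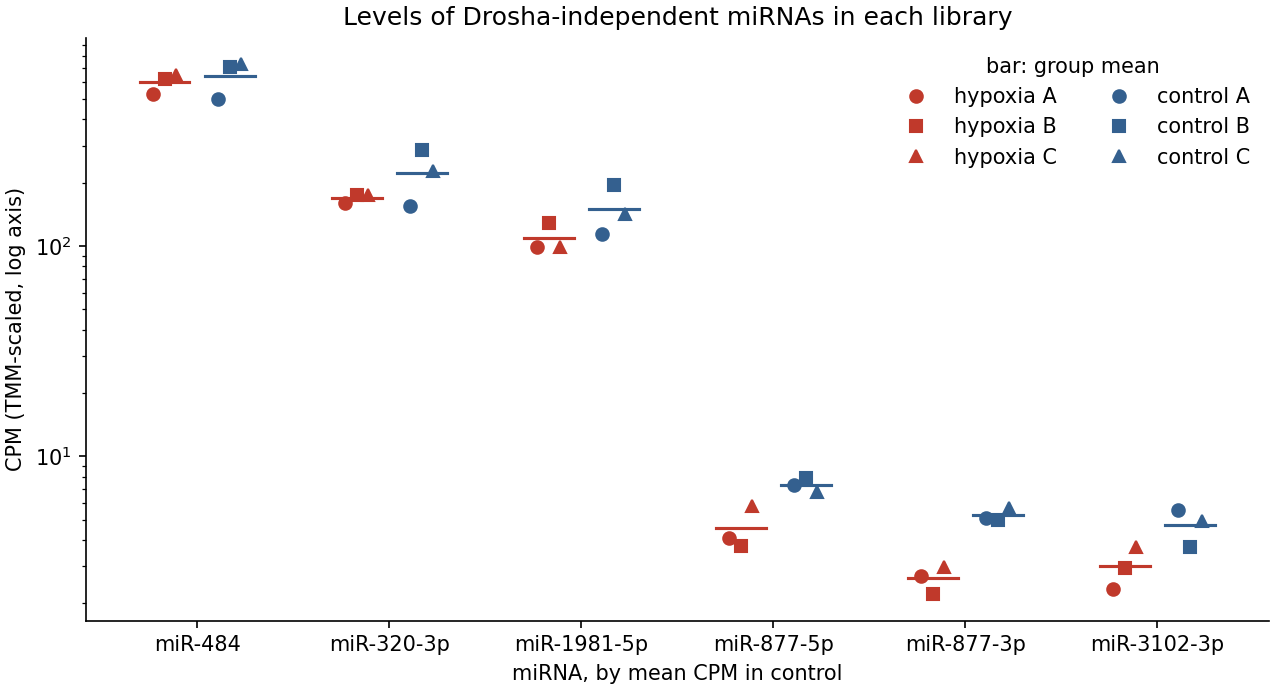
Level of each of the 6 members past the expression filter in each library, in CPM on a log axis; symbols are libraries A, B and C of the hypoxia (left) and control (right) group, and horizontal bars are group means. Both miR-877 arms have all hypoxia points below all control points, while miR-484 overlaps over its whole range.

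Of the transcribed hairpins, miR-320-3p, reported in mouse hearts to repress the small heat shock protein Hsp20, had 160, 174 and 175 CPM in the hypoxia libraries, against 156, 286 and 228 CPM in the control libraries. Control A stood below all 3 hypoxia libraries and the other 2 control libraries above them. The log2 fold change was -0.39 (SE 0.24). Without control A it was -0.62 (SE 0.22), and without control B it was -0.20 (SE 0.24). The hypoxia libraries were close together (coefficient of variation 4.81%), and the control libraries were not (29.2%).

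miR-484, reported in cardiomyocytes to repress the mitochondrial fission protein Fis1, was the most abundant member. It had 530, 621 and 647 CPM in the hypoxia libraries and 500, 706 and 731 CPM in the control libraries. The group ranges overlapped widely, and the log2 fold change was -0.11 (SE 0.20). Here too control A was the lowest of the 6 libraries. Leaving it out gave -0.28 (SE 0.21), and leaving out control C gave -0.02 (SE 0.24).

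The ratio of miR-484 to miR-320-3p counts, in which the scaling of libraries cancels, was 3.30, 3.56 and 3.70 in the hypoxia libraries and 3.22, 2.47 and 3.21 in the control libraries. The ratio of miR-484 to miR-877-5p counts was 130, 166 and 111 in the hypoxia libraries and 68.7, 89.2 and 108 in the control libraries. In both ratios every hypoxia library lay above every control library, with hypoxia A close to control A in the first and hypoxia C close to control C in the second. The second ratio takes in the lower level of miR-877-5p in hypoxia. How often ratios of other miRNAs separate the groups was not counted, so nothing is read from this. The other two ratios that were computed overlapped between the groups. That of miR-320-3p to miR-1981-5p counts was 1.63, 1.36 and 1.77 in the hypoxia libraries and 1.36, 1.47 and 1.61 in the control libraries. That of miR-1981-5p to miR-877-5p counts was 24.1, 34.3 and 17.1 in the hypoxia libraries and 15.7, 24.5 and 20.99 in the control libraries.

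**Figure D3:**
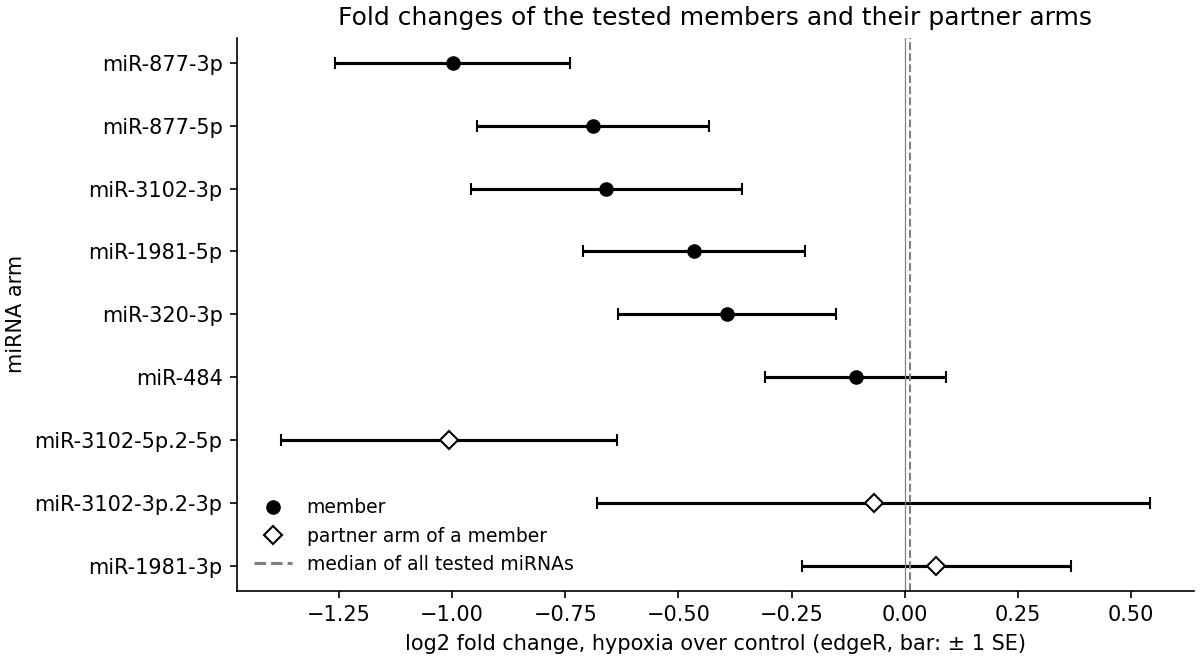
Log2 fold change, hypoxia over control, of the 6 members past the expression filter (filled circles) and of their 3 partner arms past it (open diamonds), with bars of 1 SE either side; the dashed line is the median of all 619 tested miRNAs, 0.01. Estimates run from -0.999 for miR-877-3p to -0.11 for miR-484 among the members, and the partner arm miR-1981-3p lies at 0.07.

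All 619 known miRNAs past the expression filter were fitted together in edgeR, hypoxia against control, and calls were taken at an adjusted p (Benjamini-Hochberg) under 0.05. The quasi-likelihood test called 0 of the 6 members that passed the filter, as it called 0 of all 619 (0%). At an unadjusted p under 0.05 it had 2 of the 6, both arms of miR-877, and 42 of the 619 (6.79%). DESeq2 called 1 of 1322 miRNAs (0.0756%) and limma-voom 0 of 619 (0%), none of them a member. At an unadjusted p under 0.05 each had 2 members, beside 45 of the 1322 in DESeq2 and 43 of the 619 in limma-voom. With the letter of the columns as a block edgeR called 14 of 619 (2.26%), again without a member, and 5 members and 132 of the 619 had an unadjusted p under 0.05. The 6 log2 fold changes were all below 0 with a median of -0.56, where 302 of the 619 (48.8%) were below 0 and the median was 0.01. The filter and the choice of members both bear on these counts, and nothing is read from them.

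**Figure D4:**
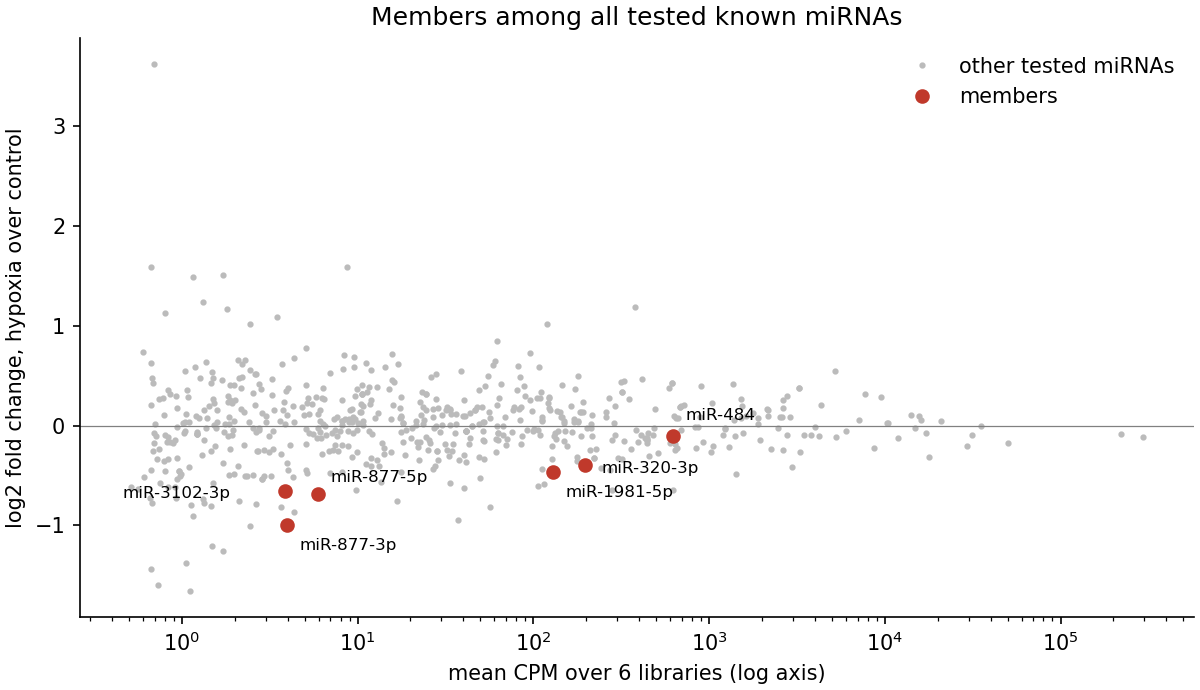
Log2 fold change, hypoxia over control, of all 619 tested miRNAs against their mean CPM over the 6 libraries on a log axis; grey points are other miRNAs and red points the 6 members past the filter. The 6 members lie below the zero line, with other miRNAs on either side of them.

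The arms of each hairpin were then set against each other, so that the scaling of libraries cancels. In miR-1981 the 5p arm prevailed, with 93.4%, 93.1% and 94.1% of both arms' counts in the hypoxia libraries, against 95.5%, 95.2% and 95.6% in the control libraries. Every hypoxia library lay below every control library, with means of 93.5% ± 0.534 in hypoxia and 95.5% ± 0.212 in control (SD, n = 3 each). How many other hairpins have arm shares that separate the groups was not counted, so no arm shift is read from this. The partner arm miR-1981-3p itself stood at 7.55 ± 1.74 CPM in hypoxia and 7.20 ± 2.29 CPM in control (SD, n = 3 each), with a log2 fold change of 0.07 (SE 0.30). Counting error alone was of like size in the closest libraries, where the 95% exact interval was 92.8% to 95.3% in hypoxia C and 94.3% to 96.0% in control B.

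miR-877 used its arms more evenly. Its 5p arm held 60.2%, 62.9% and 66.1% of both arms' counts in the hypoxia libraries and 58.8%, 61.3% and 54.4% in the control libraries. These shares overlapped, and the 95% exact interval was 50.5% to 69.3% in hypoxia A and 47.1% to 61.5% in control C, so a small shift between the arms was not detectable at this depth.

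**Figure D5:**
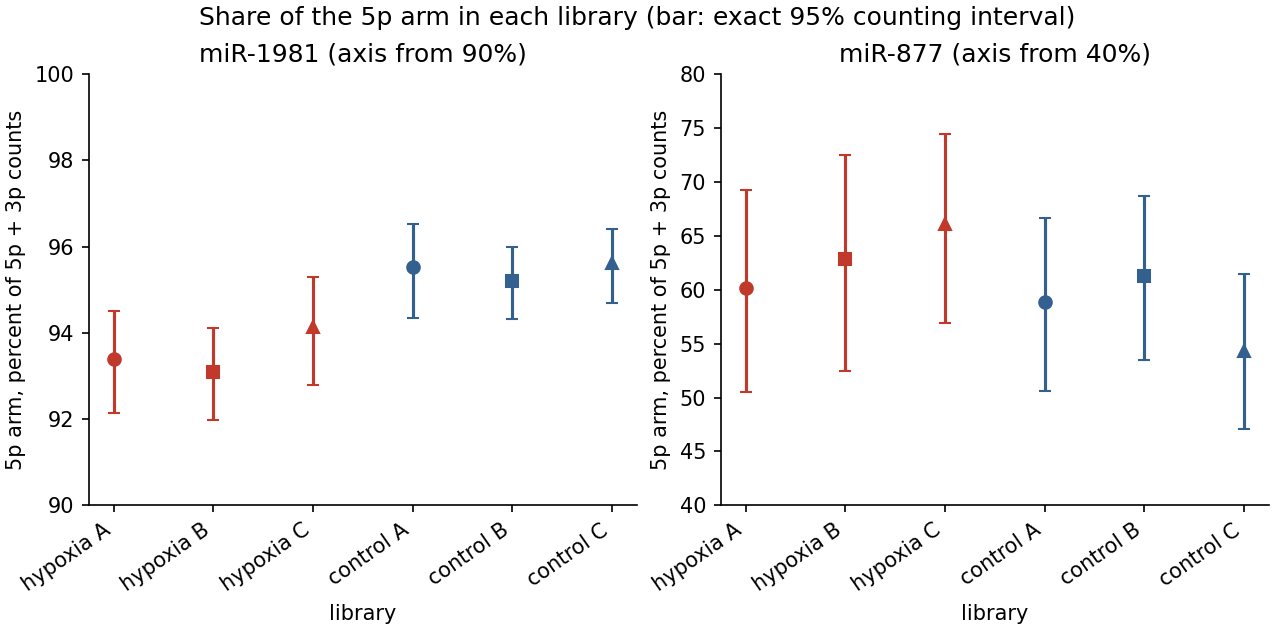
Share of the 5p arm in the counts of both arms for miR-1981 (left panel, axis from 90%) and miR-877 (right panel, axis from 40%) in each library; points are libraries and bars exact 95% intervals for counting error. The hypoxia libraries of miR-1981 lie between 93.1% and 94.1%, below the control libraries at 95.2% to 95.6%, and those of miR-877 overlap the control libraries.

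miR-320 is known for a near complete use of the 3p arm, and its 5p arm had 2, 4 and 1 counts in the hypoxia libraries and 0 counts in each control library, beside 1921 to 3718 counts of the 3p arm. A count of 0 in the control libraries allowed up to 0.198 to 0.244 CPM, while the hypoxia libraries had 0.120, 0.245 and 0.0726 CPM, so no difference is read from them. The inner 5p arm of the miR-3102 intron, miR-3102-5p.2-5p, had 2.22, 1.66 and 0.943 CPM in the hypoxia libraries, against 3.32, 2.77 and 3.69 CPM in the control libraries. These groups did not overlap, and the log2 fold change was -1.01 (SE 0.37). Over all 619 tested miRNAs 34 (5.49%) had all hypoxia libraries below all control libraries. The inner 3p arm, miR-3102-3p.2-3p, ranged from 0.653 to 1.96 CPM in hypoxia and from 0.648 to 2.29 CPM in control, and its log2 fold change of -0.07 (SE 0.61) was smaller than its error. Of the 5 partner arms, 3 passed the filter, and miR-702-5p, with 0 to 7 counts per library, did not.

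Other rows of the table whose hairpin is a whole intron numbered 36, of which 19 had a count and 1 passed the filter. The exception was miR-6944-3p, at 2.42 ± 0.703 CPM in hypoxia and 3.45 ± 1.14 CPM in control (SD, n = 3 each). Its level was near those of miR-877-3p and miR-3102-3p, the groups overlapped, and the log2 fold change was -0.51 (SE 0.37). Both arms of miR-1224, whose hairpin fills an intron of Vwa5b2, were among the 36. miR-1224-5p had 4, 0 and 0 counts in the hypoxia libraries and 4, 0 and 1 counts in the control libraries, and miR-1224-3p had none.

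A further list held miRNAs that are reported as fragments of other small RNAs made without Dgcr8. They come from small nucleolar RNAs (both arms of miR-1839, both arms of miR-664, and miR-1291) and from a transfer RNA gene (miR-1983). All 6 passed the filter, 4 were above 0 and 2 below, with a median log2 fold change of 0.06 beside 0.01 for all 619. miR-1983 stood at 224 ± 50.96 CPM in hypoxia and 209 ± 9.49 CPM in control (SD, n = 3 each), with a log2 fold change of 0.10 (SE 0.21). miR-1839-5p stood at 214 ± 35.5 CPM in hypoxia and 212 ± 13.5 CPM in control (SD, n = 3 each), with 0.01 (SE 0.19), and miR-664-3p had -0.02 (SE 0.22). In all 3 the groups overlapped.

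miRNAs that test the other steps of the pathway were set beside them. miR-451a, which needs Drosha but is cut by Ago2 in place of Dicer, varied widely between libraries, at 3.21 ± 2.23 CPM in hypoxia and 2.45 ± 2.34 CPM in control (SD, n = 3 each). miR-1306 comes from a hairpin in the Dgcr8 transcript that the Microprocessor itself cuts. Its arms had log2 fold changes of 0.19 (SE 0.24) for miR-1306-3p and -0.51 (SE 0.36) for miR-1306-5p, both with overlapping groups. None of the 3 was called.

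Likeness between miRNAs was described by Pearson's r of log2 CPM over the 6 libraries of both groups. Each r therefore includes any difference between hypoxia and control. It also includes what the miRNAs of a library have in common, its depth and its cells. The arms of miR-877 followed each other (r = 0.92, n = 6), as did miR-320-3p and miR-1981-5p (r = 0.91, n = 6) and miR-484 and miR-320-3p (r = 0.82, n = 6), while r was lower between miR-484 and miR-877-3p (r = 0.26, n = 6) and between miR-484 and miR-3102-3p (r = 0.12, n = 6). The miR-877 value takes in the lower level of both arms in hypoxia. Both arms ranked the hypoxia libraries alike, but they ranked the control libraries in opposite order. Among other hairpins miR-3970 was most like both miR-877 arms (r = 0.987 for 3p and 0.961 for 5p), and its own log2 fold change was -0.39 (SE 0.19). Next came miR-3082-3p for the 3p arm (r = 0.959) and miR-191-3p for the 5p arm (r = 0.946). The miRNAs most like miR-1981-5p were miR-30d-5p (r = 0.988) and miR-27b-5p (r = 0.982), and those most like miR-3102-3p were miR-92a-3p (r = 0.949) and miR-450b-5p (r = 0.847). For miR-320-3p they were miR-222-3p (r = 0.968) and miR-215-5p (r = 0.966), and for miR-484 they were miR-203-3p (r = 0.980) and miR-26a-5p (r = 0.976). With 6 libraries and 619 candidates, these values are descriptions only.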

How the data were processed

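Small RNA of 3 hypoxia and 3 control libraries was counted by the authors. The deposited table gives raw read counts per known mature miRNA, 1 column per library, as whole numbers. Listed per the submitters' processing notes are bcl2fastq 2.0, DESeq2 and the build mm10, whose roles are not described. No source used here gives the aligner, the counter or the handling of reads with several matches. Titles number the replicates and columns letter them, and no label links the numbers to the letters. A second table, of predicted miRNAs, was not used here.

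Members and lists were chosen with earlier results of these data known. Named are the 8 members, up to 3 of the most abundant rows of each list with miR-1224 added by name, all 5 partner arms, and for each tested member the 2 tested miRNAs of other hairpins with the highest r of log2 CPM (prior count 2).

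The edgeR 4.0.16 package in R 4.3.3 kept 619 of 1978 rows (filterByExpr), scaled them by TMM and fitted the quasi-likelihood model, with p-values adjusted by Benjamini-Hochberg. Each SE was obtained as |log2 fold change| over the root of F. Alternatives used limma 3.58.1 and DESeq2 1.42.0. The fit was tested on simulated data. Same-letter libraries deviated together (r = 0.52 for A, 0.43 for B and 0.28 for C, against -0.44 to 0.12 for unlike letters). The deviations were taken from group means and cancel out within each group. A positive same-letter r therefore pulls the unlike ones down, and the contrast between them is partly built in. Every same-letter r was over 0.1, the rule set for pairing, and a letter block was fitted as an alternative. The unlike pair of hypoxia B and control C also passed 0.1 (r = 0.12). This pairing comes from column names and values only. Fold changes and SEs are without the block unless it is named. No 2 libraries were alike within counting noise (smallest chi-square over its degrees of freedom 85.9). Introns came from GENCODE M21 and sequences from RefSeq GRCm38.p6.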

Additional observations from a re-analysis of the deposited data

How the results depend on the processing

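The 6 members past the filter stayed below 0 in all 15 alternative fits, 90 of 90 values. These fits use the same 6 libraries or a part of them, and the members were named with this contrast in view. The 90 values are therefore not independent, and how many of all miRNAs keep their sign was not counted. Ranges were -1.12 to -0.91 for miR-877-3p, -0.96 to -0.55 for miR-877-5p, -0.86 to -0.37 for miR-3102-3p, -0.65 to -0.26 for miR-1981-5p, -0.62 to -0.20 for miR-320-3p and -0.28 to -0.02 for miR-484. For miR-877-5p 1 value moved by more than 1 SD between libraries, -0.96 with the replicate block and without pair C; the cause was not tested. Scaling by library size alone moved the median of all tested miRNAs to 0.08 and put miR-484 at -0.04 and miR-877-3p at -0.93. None of the 32 mean CPM values under the 2 other scalings moved by more than 1 SD.

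No member was called in any fit. The count over all miRNAs was 0 in the main fit, under both other scalings, in limma-voom and in each of the 6 fits that left out 1 library. It was 4 without the filter (1322 tested), 1 in DESeq2, 14 with the replicate block and 23 with the block and without pair B, and 0 without pair A or C. Without the 10 most abundant miRNAs in the denominator the members held 0.328% in hypoxia and 0.393% in control, by construction more than before. Depth limits miR-702-3p, miR-3102-5p and miR-320-5p, which had at most 7 counts in a library, and the arm shares of miR-877.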

Other observations

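Members differed in their spread within groups. The within-group SD of log2 CPM was 0.16 for miR-877-3p and 0.24 for miR-877-5p, beside medians of 0.43 and 0.37 over the 50 tested miRNAs nearest to each in rank by mean CPM. It was 0.32 for miR-320-3p and 0.24 for miR-484, beside medians of 0.25 and 0.22. For miR-1981-5p and miR-3102-3p it was 0.31 each, beside medians of 0.30 and 0.43. At the 36 to 89 counts of miR-877-3p per library, counting error enters this SD. Its part was not separated, so a low SD is not read as steadiness. By mean CPM miR-484 ranked 84, miR-320-3p 133, miR-1981-5p 163, miR-877-5p 415, miR-877-3p 443 and miR-3102-3p 445 among the 619.

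Within same-lettered libraries the log2 difference, hypoxia minus control, of miR-877-3p was -0.88 (A), -1.13 (B) and -0.90 (C), and that of miR-877-5p was -0.81 (A), -1.05 (B) and -0.21 (C). For miR-3102-3p it was -1.21 (A), -0.31 (B) and -0.39 (C). For the transcribed hairpins pair A gave 0.04 for miR-320-3p and 0.08 for miR-484, while B and C gave -0.71 and -0.38 for miR-320-3p and -0.19 and -0.18 for miR-484.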
